A study of Homo sapiens with 6 samples.

Results

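The core circadian clock of human cells was examined through 10 genes: the activators CLOCK and ARNTL, the repressors PER1, PER2, PER3, CRY1 and CRY2, the nuclear receptors NR1D1 and NR1D2, and the output gene DBP. They are textbook members of the clock, chosen with earlier results of these data known and read from the count table by symbol, and they are 10 of the 15585 genes listed there. ARNTL is the symbol in the table for the gene of BMAL1. All 10 passed the filter on low counts (edgeR's filterByExpr with a minimum count of 10), as did 11844 of the 15585 genes in all.

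RNA was sequenced from U2OS cells, a human osteosarcoma line that is widely used to study the clock. The siCTR group received control siRNA and the siLSD1 group received siRNA against the histone demethylase LSD1, each for 48 h and with 3 libraries, and both groups shared the line and the transfection. The labels give no clock-resetting treatment and 1 time, so that a level here is an average over the cells of a library and the phase of the clock was not measured. Which LSD1 siRNA was used, and whether the libraries of a group came from separate cultures, is not given in the sources used here, and p-values therefore measure only the spread between these libraries, which may be technical.

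In the clock, CLOCK and BMAL1 bind E-box sequences as a pair and activate the PER, CRY, NR1D and DBP genes. PER and CRY proteins return to the nucleus and repress the pair, while the NR1D proteins (REV-ERB) repress ARNTL, and DBP acts on D-box sequences of further genes. LSD1 is known as a cofactor that is recruited to promoters bound by CLOCK and BMAL1.

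Counted reads totalled 12855558, 13026699 and 13444230 for replicates 1, 2 and 3 of siCTR, and 13292468, 12513511 and 13561344 for those of siLSD1. KDM1A, the gene of LSD1 (chromosome 1, 23019443 to 23083689, GRCh38), had counts of 6140, 6493 and 6573 in siCTR against 1110, 1198 and 1246 in siLSD1. It fell to 18.5% of the siCTR mean in CPM (counts scaled to library size with edgeR's TMM method), with a log2 fold change of −2.44 (standard error 0.11, Benjamini-Hochberg adjusted p = 2.27e-07 in edgeR), and each siLSD1 library was far below each siCTR library. Reads on GC-rich genes varied between the libraries. The slope of log2 CPM on the GC content of the gene, per 10% GC, was 0.10, −0.01 and −0.03 in siCTR replicates 1, 2 and 3, and 0.13, 0.00 and −0.19 in siLSD1 replicates 1, 2 and 3. The library of siLSD1 replicate 3 had the lowest slope of the 6.

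Markers of the labelled cell line were mixed. VIM, the gene of the mesenchymal filament vimentin, had 9487 to 11615 reads per library, and COL1A1 had 122 to 200, whereas SPARC had 0 to 3 reads and RUNX2, a regulator of bone cells, 0 to 4. COL1A2 was not analysed here. The leukocyte markers in the table summed to 4 to 23 reads, nearly all of them from CD14, and the endothelial marker PECAM1 had 0 to 3. The 3 epithelial markers summed to counts of 125, 121 and 97 in siCTR against 182, 153 and 177 in siLSD1, of which CDH1 gave the most, while KRT5 had 0 or 1 read and EPCAM 28 to 41. Of the neural markers, TUBB3 had 17 to 31 reads and SOX10 2 to 4. The log2 fold change of CDH1 was 0.77 (Benjamini-Hochberg adjusted p = 0.0699 in edgeR) and that of EPCAM −0.06. For VIM, COL1A1 and TUBB3 it was −0.02, 0.17 and 0.20, none of the 5 passed, and the part of these markers in the results for the clock genes was not tested.

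The question put to the comparison was whether clock transcripts differ after LSD1 knockdown. With edgeR's quasi-likelihood test and p-values adjusted over all tested genes (Benjamini-Hochberg), 0 of the 10 clock genes had an adjusted p under 0.05, beside 1.44% of all tested genes (171 of 11844). DESeq2 and limma-voom also called 0 of the 10, beside 2.73% and 1.34% of all tested genes. At an unadjusted p under 0.05, edgeR, DESeq2 and limma-voom each gave 2 of the 10, which were NR1D2 and DBP, beside 14.0%, 13.2% and 14.3% of all tested genes. NR1D2 was the 1 that was higher in siLSD1, beside 7.48% of all tested genes, and DBP the 1 that was lower, beside 6.55%. Without siLSD1 replicate 3 the count at the unadjusted threshold was 0, beside 13.7% of all tested genes, and over the 6 fits that each left out 1 library it lay between 0 and 3, beside 8.86% to 14.3%. A log2 fold change below 0 was found for 8 of the 10 clock genes (for 6 to 8 when each library was left out) and for 52.7% of all tested genes. The median was −0.12 over the clock genes and −0.01 over all tested genes. When each library was left out, the median over the clock genes lay between −0.21 and −0.08. The groups did not overlap in scaled CPM for 1 of the 10, DBP, beside 21.4% of all tested genes. In RNA from whole cultures, a change in the number of cells of a kind and a change in RNA per cell cannot be told apart.

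**Figure D1:**
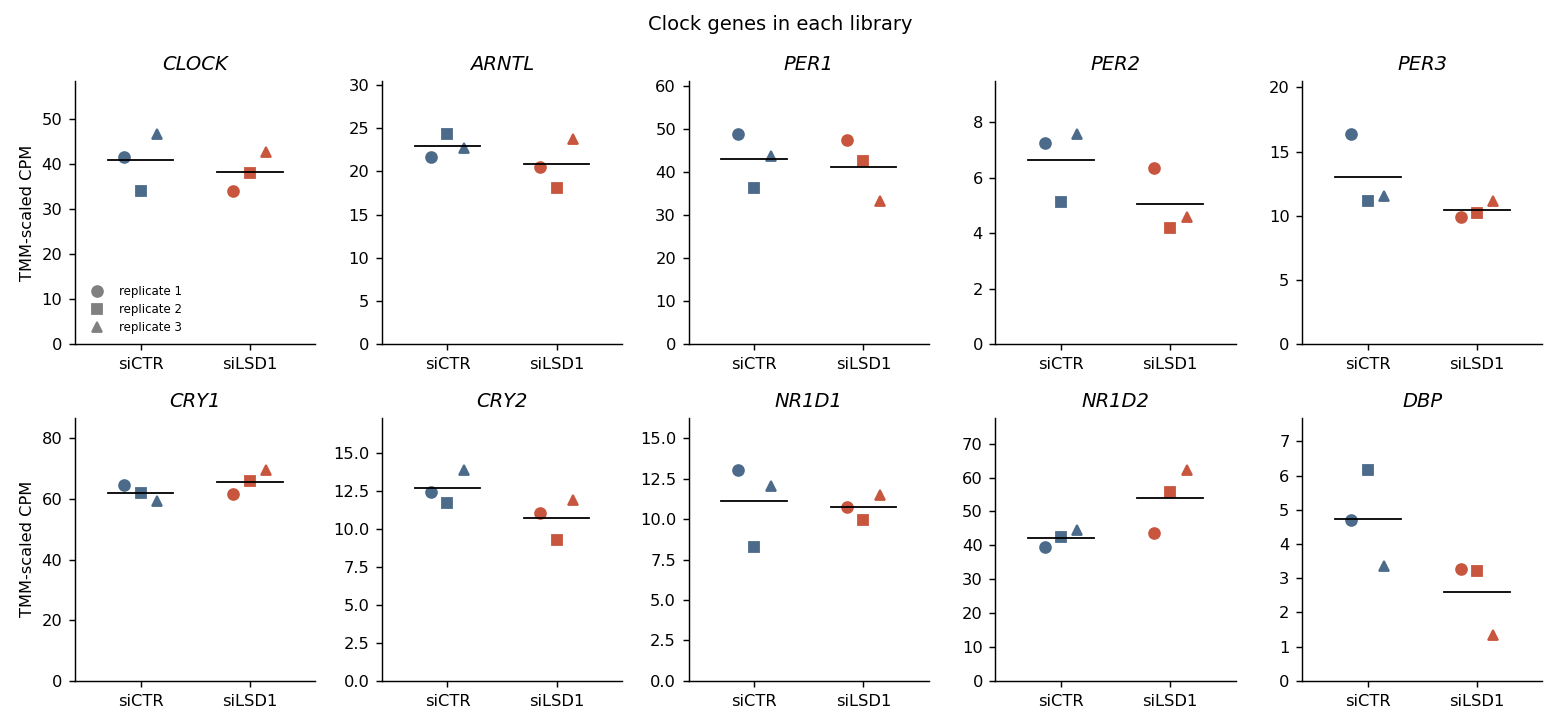
TMM-scaled CPM of the 10 clock genes in each library, with 3 siCTR libraries (blue) and 3 siLSD1 libraries (red) per gene, the replicate number as the shape of the point and the group mean as a line. The groups overlap for all genes but DBP, where the highest siLSD1 library has 3.28 CPM and the lowest siCTR library 3.35.

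CLOCK (chromosome 4, 55427903 to 55546909), which encodes a helix-loop-helix protein of the activator pair, had 41.6, 34.1 and 46.8 CPM in siCTR replicates 1, 2 and 3 and 34.0, 38.0 and 42.7 CPM in siLSD1 replicates 1, 2 and 3. The lowest siLSD1 library lay just below the lowest siCTR library, and the other siLSD1 libraries lay inside the siCTR range. For CLOCK the log2 fold change was −0.09 (standard error 0.14, 95% confidence interval −0.41 to 0.22), with −0.21 to 0.01 when each library was left out and −0.16 with the GC and length correction, an alternative fit that removed the trend of each library on these 2 properties of the genes. ARNTL (chromosome 11, 13276652 to 13387266), its partner, had 21.7, 24.4 and 22.8 CPM in the siCTR libraries and 20.5, 18.1 and 23.8 CPM in the siLSD1 libraries. Of the siLSD1 libraries, replicates 1 and 2 were below all siCTR libraries and replicate 3 was within their range. ARNTL had a log2 fold change of −0.14 (standard error 0.14, interval −0.45 to 0.16), with −0.25 to −0.04 when each library was left out. In edgeR the Benjamini-Hochberg adjusted p was 0.805 for CLOCK and 0.686 for ARNTL. For both activators the interval lay within 0.5 of 0 on the log2 scale, which was so for 5 of the 10 clock genes and for 6134 of the 11844 tested genes.

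Neither paralogue of the activators passed the test. NPAS2, which can take the place of CLOCK, had 80.8, 69.8 and 75.9 CPM in siCTR and 82.3, 81.2 and 83.1 CPM in siLSD1, a log2 fold change of 0.12 (standard error 0.11, Benjamini-Hochberg adjusted p = 0.648 in edgeR), and 0.07 without siCTR replicate 2 and 0.08 with that correction. Its siLSD1 libraries were all above its siCTR libraries, by a small margin. ARNTL2, the paralogue of ARNTL, had 13.8 to 14.3 CPM in siCTR and 14.0 to 15.4 CPM in siLSD1. Its log2 fold change was 0.07, and lay between 0.04 and 0.10 when each library was left out and at 0.02 with the correction. On the scale of FPKM, which divides by gene length, NPAS2 had a mean of 18.8 in siCTR and CLOCK 3.60, so that the level of NPAS2 per length was the higher in these cells. In the same unit ARNTL2 was at 2.02 and ARNTL at 7.57.

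PER1, PER2 and PER3 encode the repressors that enter the nucleus with the CRY proteins. The letters of clock motifs were searched on both strands in the promoter windows of RefSeq, which run from 250 bases before to 50 bases after the start that RefSeq gives (GRCh38.p14), and a window was found for all 10 clock genes. The E-box CACGTG, the letters read by CLOCK and BMAL1, was in the window of 1 of the 10, PER1, and in 7.26% of 35116 windows of all genes. The D-box TTATGTAA, read by DBP and its relatives, was in the window of PER3 alone among the 10, and in 0.886% of all windows. The 2 windows are shown with these motifs in capitals, since they are the clock genes whose windows hold letters of the activators or of the output factor. A match is a description and not a measured site.
PER1 (chr17:8152355-8152654, − strand): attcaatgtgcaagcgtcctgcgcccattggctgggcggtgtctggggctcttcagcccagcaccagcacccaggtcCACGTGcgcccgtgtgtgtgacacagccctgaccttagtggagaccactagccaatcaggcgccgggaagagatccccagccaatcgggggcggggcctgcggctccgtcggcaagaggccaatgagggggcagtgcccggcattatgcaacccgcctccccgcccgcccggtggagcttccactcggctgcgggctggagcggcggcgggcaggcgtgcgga
PER3 (chr1:7784041-7784340, + strand): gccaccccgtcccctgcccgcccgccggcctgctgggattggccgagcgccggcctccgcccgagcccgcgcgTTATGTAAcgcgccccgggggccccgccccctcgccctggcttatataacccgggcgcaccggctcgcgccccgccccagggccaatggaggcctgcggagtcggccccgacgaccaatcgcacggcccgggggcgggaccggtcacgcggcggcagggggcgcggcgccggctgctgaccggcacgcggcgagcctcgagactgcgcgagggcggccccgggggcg
In PER1 the E-box began 173 bases before the RefSeq start, and in PER3 the D-box began 177 bases before it. That start was the outer end of the GENCODE span in 7 of the 10 genes, PER3 among them, and lay inside the span by 4102 bases in PER1, 1492 in PER2 and 1138 in ARNTL. The site AGGTCA, which the NR1D and ROR receptors read, was in the windows of ARNTL, PER1 and CRY2 and in 13.8% of all windows. The element TGACGTCA, read by CREB, was in 0 of the 10 and in 1.85% of all windows.

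PER1 (chromosome 17, 8140472 to 8156506), which also responds early to serum and stress signals, had 48.9, 36.3 and 43.7 CPM in siCTR replicates 1, 2 and 3 and 47.5, 42.6 and 33.4 CPM in siLSD1 replicates 1, 2 and 3. The spread within each group was wider than the distance between the means. Its log2 fold change was −0.06 (standard error 0.16, interval −0.40 to 0.27), and the sign turned without siCTR replicate 1 (0.04) or without siLSD1 replicate 3 (0.07), while it was −0.18 without siLSD1 replicate 1 and −0.04 by a second set of counts of the same libraries, named here the second counts. PER2 (chromosome 2, 238244044 to 238290102), the PER gene with the fewest reads, had counts of 94, 66 and 102 in siCTR against 85, 52 and 62 in siLSD1, which is 7.24, 5.14 and 7.59 CPM against 6.33, 4.17 and 4.60 CPM. Replicates 2 and 3 of siLSD1 were below all siCTR libraries, and replicate 1 was above siCTR replicate 2. For PER2 the estimate was a log2 fold change of −0.40 (standard error 0.23, interval −0.89 to 0.09), with −0.60 to −0.28 when each library was left out. PER3 (chromosome 1, 7784291 to 7845177) had 16.4, 11.1 and 11.5 CPM in siCTR and 9.91, 10.2 and 11.2 CPM in siLSD1. Its siCTR replicate 1 stood apart from the other 5 libraries, and siLSD1 replicate 3 was just above siCTR replicate 2. PER3 had a log2 fold change of −0.32 (standard error 0.18, interval −0.71 to 0.07). When each library was left out it lay between −0.42 (without siCTR replicate 2) and −0.12 (without siCTR replicate 1). In edgeR the Benjamini-Hochberg adjusted p was 0.889 for PER1, 0.456 for PER2 and 0.450 for PER3. The 3 genes were lower in siLSD1 by their means, and none of them passed the test. With the GC and length correction PER1 was at 0.00, and PER2 and PER3 had unadjusted p-values of 0.0335 and 0.0220 in edgeR's model fitted across all genes. These stood among 24.4% of all genes below 0.05 in that fit, and at Benjamini-Hochberg adjusted p-values of 0.166 and 0.132 in edgeR neither was called.

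CRY1 (chromosome 12, 106991364 to 107093549), which encodes the stronger repressor of the pair of cryptochromes, had 64.6, 62.1 and 59.4 CPM in siCTR replicates 1, 2 and 3 and 61.8, 66.0 and 69.5 CPM in siLSD1 replicates 1, 2 and 3. Its libraries lay closest together of the 10 genes in siCTR, with a coefficient of variation of 4.19%. The log2 fold change of CRY1 was 0.08 (standard error 0.11, interval −0.16 to 0.33), with 0.04 to 0.13 when each library was left out. CRY2 (chromosome 11, 45847118 to 45883248), the other cryptochrome gene, had 12.4, 11.7 and 13.8 CPM in siCTR and 11.0, 9.23 and 11.9 CPM in siLSD1. Of the siLSD1 libraries, replicate 3 alone was above the lowest siCTR library. CRY2 had a log2 fold change of −0.24 (standard error 0.16, interval −0.58 to 0.11), with −0.32 to −0.14 when each library was left out. In edgeR the Benjamini-Hochberg adjusted p was 0.774 for CRY1 and 0.528 for CRY2.

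NR1D1 (chromosome 17, 40092793 to 40100589) encodes REV-ERB alpha, a repressor of ARNTL. It had 13.0, 8.25 and 12.1 CPM in siCTR replicates 1, 2 and 3 and 10.7, 9.95 and 11.5 CPM in siLSD1 replicates 1, 2 and 3. All siLSD1 libraries were inside the siCTR range. The log2 fold change was −0.05 (standard error 0.19, interval −0.45 to 0.35, Benjamini-Hochberg adjusted p = 0.924 in edgeR). It was −0.03 in limma-voom and 0.00 by the second counts. Its sign turned to 0.01 with the GC and length correction, and the value ranged from −0.22 to 0.08 when each library was left out. In GENCODE, NR1D1 shares 473 exonic bases with THRA on the other strand. THRA had 471 to 682 reads per library and a log2 fold change of −0.25 (standard error 0.14). The strand setting and the annotation of the counts are not given in the sources used here. Whether the shared stretch was counted is thus not known, and any reads of NR1D1 and THRA in it cannot be told apart.

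NR1D2 (chromosome 3, 23945286 to 23980617), which encodes REV-ERB beta, had counts of 514, 546 and 599 in replicates 1, 2 and 3 of siCTR against 587, 696 and 838 in those of siLSD1. In CPM these were 39.6, 42.5 and 44.5 against 43.7, 55.8 and 62.1. Replicates 2 and 3 of siLSD1 were above all siCTR libraries, and siLSD1 replicate 1 was within the siCTR range. The mean was 42.2 ± 2.49 CPM in siCTR (SD, n = 3) against 53.9 ± 9.35 CPM in siLSD1 (SD, n = 3). For NR1D2 the log2 fold change was 0.35 (standard error 0.14, interval 0.05 to 0.66, Benjamini-Hochberg adjusted p = 0.273 in edgeR), and it was not called. With the GC and length correction it was 0.32 and passed the threshold (Benjamini-Hochberg adjusted p = 0.0409 in edgeR), as did 7.45% of all genes in that fit. Over the 7 alternatives that kept all libraries and the unpaired design, NR1D2 had adjusted p-values between 0.0409 and 0.297 by the Benjamini-Hochberg method in edgeR, DESeq2 or limma. When each library was left out, the log2 fold change of NR1D2 lay between 0.24 (without siLSD1 replicate 3) and 0.48 (without siLSD1 replicate 1).

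DBP (chromosome 19, 48630030 to 48637379) encodes a D-box factor of the PAR bZIP family and is a direct E-box target. It had the fewest reads of the 10 genes, with 61, 79 and 45 in siCTR replicates 1, 2 and 3 and 44, 40 and 18 in siLSD1 replicates 1, 2 and 3. In CPM these were 4.70, 6.15 and 3.35 against 3.28, 3.21 and 1.33. All siLSD1 libraries were below all siCTR libraries, but siLSD1 replicate 1 and siCTR replicate 3 differed by 1 read. The mean was 4.73 ± 1.40 CPM in siCTR (SD, n = 3) against 2.61 ± 1.10 CPM in siLSD1 (SD, n = 3), or 55.1% of the former. The log2 fold change of DBP was −0.86 (standard error 0.33, interval −1.58 to −0.14, Benjamini-Hochberg adjusted p = 0.259 in edgeR), and it was not called. Leaving out siLSD1 replicate 3 gave −0.54, leaving out siCTR replicate 2 gave −0.63, and leaving out siLSD1 replicate 1 gave −1.07. With a block for the replicate number DBP was at −0.88 and passed (Benjamini-Hochberg adjusted p = 0.0207 in edgeR), as did 7.57% of all tested genes. What that number stands for is not given in the sources used here. The second counts had 73, 91 and 49 reads of DBP in siCTR and 47, 44 and 18 in siLSD1. In GENCODE, DBP shares 661 exonic bases with SPHK2 on the other strand. SPHK2 had 139 to 207 reads per library and a log2 fold change of 0.04. Whether the shared stretch was counted is not known here, and any reads of the 2 genes in it cannot be told apart.

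**Figure D2:**
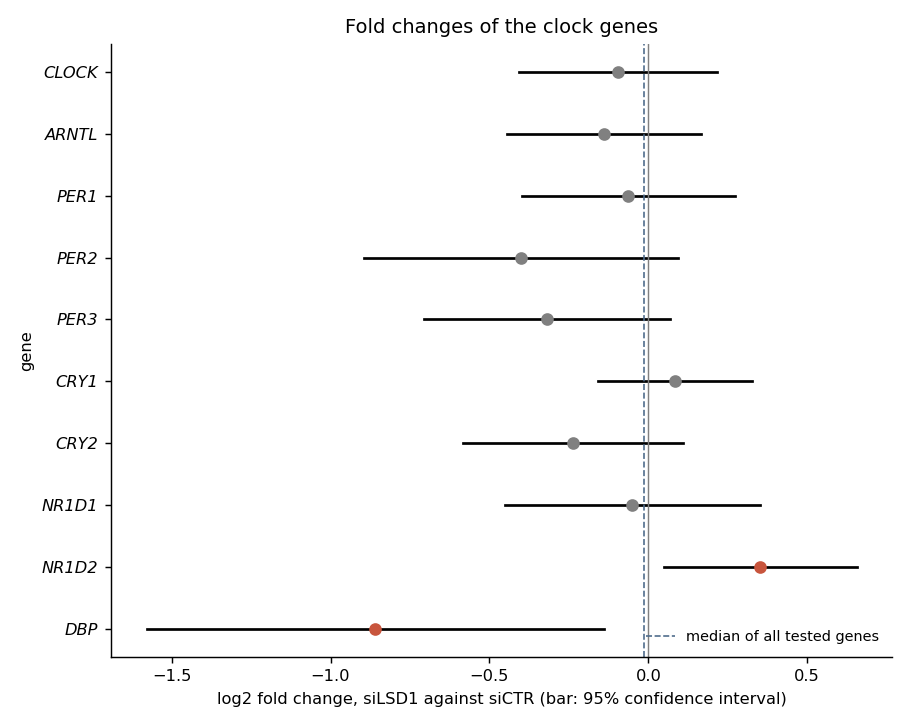
Log2 fold change of each clock gene in siLSD1 against siCTR, with its 95% confidence interval from edgeR as a bar, the genes with an unadjusted p under 0.05 in red, and the median of all tested genes (−0.01) as a dashed line. The intervals of NR1D2 and DBP leave out 0, on opposite sides, and the other 8 include it.

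DBP and NR1D2 varied in opposite directions across the libraries. Over the 6 libraries Pearson's r of their log-CPM was −0.84, which is the lowest of the 45 pairs among the 10 genes, and the points share the group difference and the libraries' GC slopes. The library of siLSD1 replicate 3, with the lowest GC slope, had the lowest value of DBP and the highest value of NR1D2. The transcript of DBP has 57.8% GC and that of NR1D2 38.3%. With the GC and length correction the log2 fold change of DBP was −0.83 and that of NR1D2 0.32, against −0.86 and 0.35 without it. Of the 45 pairs, 27 had a positive r and 18 a negative one, and NR1D2 was in 7 of the negative pairs. The highest r was 0.76, between CRY2 and PER2, followed by 0.75 between CRY2 and ARNTL.

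**Figure D3:**
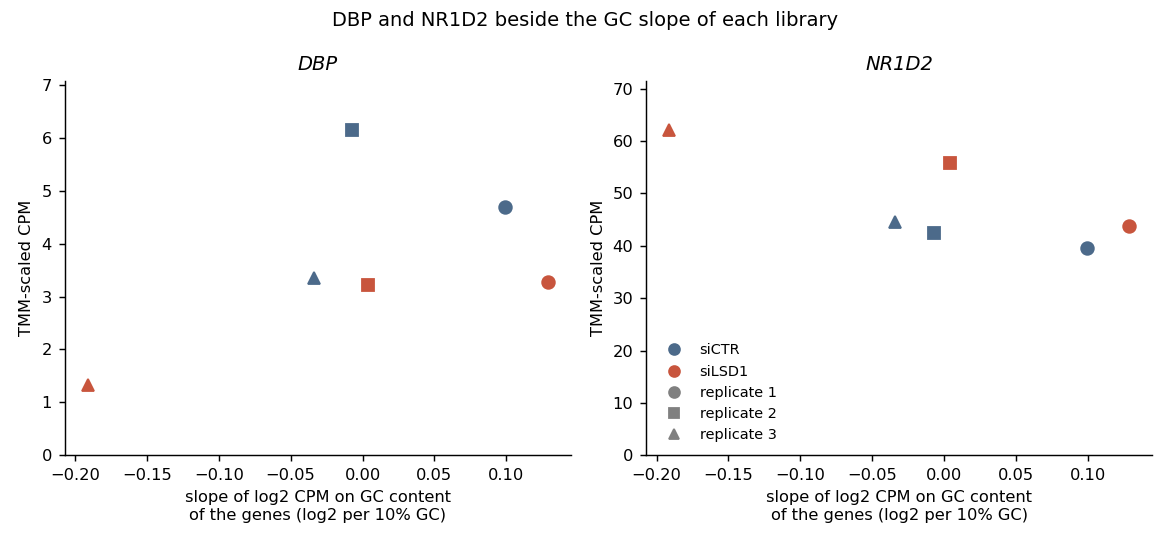
TMM-scaled CPM of DBP (left) and NR1D2 (right) in each library against the slope of log2 CPM on the GC content of the genes in that library, with siCTR in blue, siLSD1 in red and the replicate number as the shape. The library of siLSD1 replicate 3, at −0.19, has the lowest DBP and the highest NR1D2.

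The mean standardised log-CPM of the 8 clock genes that CLOCK and BMAL1 drive (PER, CRY, NR1D and DBP) was 0.69, −0.38 and 0.23 in siCTR replicates 1, 2 and 3 and −0.13, −0.32 and −0.08 in siLSD1 replicates 1, 2 and 3. The siLSD1 values lay inside the siCTR range. Among 11834 tested genes outside the 10, SLC25A51, BRD1 and MBD1 followed this mean most closely over the 6 libraries, each with r = 0.98. They were picked for the highest r among many genes over few libraries, so a high r came with the choice. Shared control with the clock genes was not tested. None of these 3 passed the test, with log2 fold changes of −0.38 for SLC25A51, −0.09 for BRD1 and −0.13 for MBD1, which were −0.12, −0.01 and −0.06 without siCTR replicate 1 and −0.57, −0.18 and −0.21 without siCTR replicate 2.

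Per gene length, as set in the deposited FPKM values, CRY1 had the highest level of the 10 clock genes and PER2 the lowest. The order rests on the lengths in those values, such as 2875 bases for DBP and 3027 for ARNTL. GENCODE gives these genes 6485 and 6934 exonic bases, and the order with such lengths was not computed. The mean FPKM in siCTR was 19.0 for CRY1, 8.02 for NR1D2, 7.87 for PER1, 7.57 for ARNTL, 4.01 for NR1D1, 3.60 for CLOCK, 2.89 for CRY2, 2.01 for PER3, 1.64 for DBP and 1.04 for PER2. In siCTR the libraries of neighbours in this order were apart between CRY1 and NR1D2, between ARNTL and NR1D1 and between CRY2 and PER3, and overlapped for all other neighbours. The order of the means in siLSD1 was the same, from 20.1 for CRY1 to 0.908 for DBP and 0.790 for PER2. There CLOCK and CRY2, and PER3 and DBP, were apart as well. The siCTR mean of CRY1 was above that of 77.0% of the genes in the table, and the siCTR mean of PER2 above that of 33.3%.

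**Figure D4:**
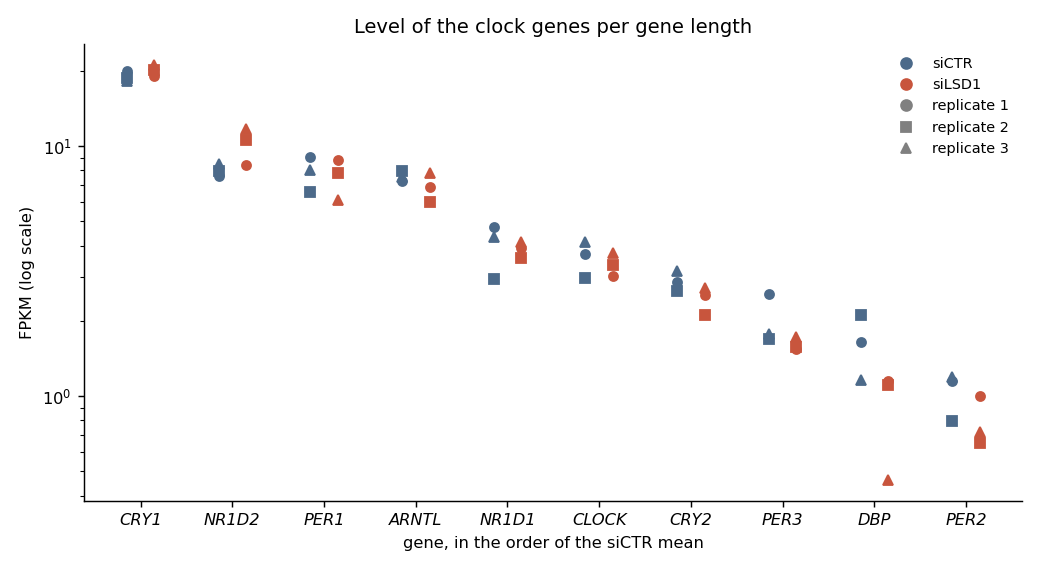
FPKM of the 10 clock genes on a log scale, in the order of the siCTR mean, with siCTR libraries in blue, siLSD1 libraries in red and the replicate number as the shape. The 6 libraries of CRY1 lie between 18.2 and 21.2 FPKM and above all other clock genes.

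Within each family of repressors 1 gene gave most of the level per length. CRY1 made up 87.4%, 87.7% and 85.2% of the summed FPKM of CRY1 and CRY2 in siCTR and 88.2%, 90.5% and 88.7% in siLSD1. The siLSD1 shares were all above the siCTR shares, by a narrow margin at the closest. These shares were not tested, neither gene was called, and the CPM of 21.4% of all tested genes did not overlap between the groups. PER1 made up 71.0%, 72.5% and 73.0% of the 3 PER genes in siCTR and 77.5%, 77.8% and 71.4% in siLSD1, and these shares overlapped between the groups. NR1D2 made up 61.6%, 73.1% and 66.1% of the FPKM of NR1D1 and NR1D2 in siCTR and 68.2%, 74.7% and 74.0% in siLSD1, also with an overlap. The ratio of ARNTL to CLOCK in FPKM was 1.96, 2.68 and 1.82 in siCTR and 2.26, 1.79 and 2.09 in siLSD1. It depends on the lengths in the FPKM values, which are 3027 bases for ARNTL and 11336 for CLOCK. GENCODE gives them 6934 and 11533 exonic bases, so which of these genes had the higher level per length is not settled here. The summed FPKM of the PER genes was 11.0 ± 1.88 (SD, n = 3) in siCTR and 9.93 ± 1.40 (SD, n = 3) in siLSD1, a difference smaller than the spread between replicates.

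Other genes of the clock were taken from 4 lists with 52 genes, of which 50 were in the table and 47 were tested. By the Benjamini-Hochberg adjusted p in edgeR 1 of the 47 passed, CDKN1A, beside 1.44% of all tested genes. At an unadjusted p under 0.05 there were 8 of 47, with 3 higher and 5 lower, beside 14.0% of all tested genes. The median log2 fold change over the 47 was 0.07, beside −0.01 over all tested genes. Of the 47, 30 were higher and 17 lower, beside 5598 higher and 6246 lower of all 11844 tested genes. The groups did not overlap for 15 of the 47, beside 21.4% of all tested genes.

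Among the other clock transcription factors 8 of 11 were tested, and 0 passed the adjusted threshold in edgeR, DESeq2 or limma-voom. At the unadjusted threshold there were 2 of the 8 in edgeR (RORA and TEF, beside 14.0% of all tested genes) and 1 in DESeq2 and in limma-voom (beside 13.2% and 14.3%). RORB, HLF and CIART had at most 3 reads in any library. RORA, the receptor that activates ARNTL in competition with the NR1D proteins, had few reads, with 14, 5 and 13 in siCTR and 23, 19 and 25 in siLSD1. All siLSD1 libraries of RORA were above all siCTR libraries, and the log2 fold change was 1.05 (standard error 0.39, interval 0.21 to 1.90, Benjamini-Hochberg adjusted p = 0.237 in edgeR). TEF, a relative of DBP in the PAR bZIP family, had counts of 61, 59 and 69 in siCTR against 50, 43 and 45 in siLSD1. Its groups did not overlap either, as for 3 of the 8 tested factors and 21.4% of all tested genes. The log2 fold change of TEF was −0.46 (standard error 0.21, Benjamini-Hochberg adjusted p = 0.352 in edgeR). HLF, the other gene of that family, was too low to test, so that DBP and TEF were the PAR bZIP genes measured here, with neither called.

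Of the 17 clock kinases and enzymes of the ubiquitin system 15 were tested and 0 passed, with 2 at the unadjusted threshold (USP2 and GSK3B), in each of edgeR, DESeq2 and limma-voom. These 2 are 13.3% of the 15, near the 14.0%, 13.2% and 14.3% of all tested genes in the 3 tools. The kinases of PER proteins, CSNK1D and CSNK1E, had log2 fold changes of −0.20 (standard error 0.12) and 0.11 (standard error 0.18), and the value of CSNK1D was −0.10 without siLSD1 replicate 3. That of CSNK1E turned to −0.13 without siLSD1 replicate 1, was 0.29 without siLSD1 replicate 3 and 0.05 by the second counts. USP2, a deubiquitinase whose transcript is itself under clock control, had counts of 167, 123 and 171 in siCTR against 101, 96 and 99 in siLSD1. In CPM the siLSD1 libraries lay between 7.34 and 7.70 and those of siCTR between 9.58 and 12.9. USP2 had a log2 fold change of −0.64 (standard error 0.17, Benjamini-Hochberg adjusted p = 0.10 in edgeR). With the GC and length correction it was −0.65 with an adjusted p of 0.0225 in edgeR (Benjamini-Hochberg), and 7.45% of all genes passed there. The adjusted p of USP2 lay between 0.0225 and 0.126 over those 7 alternatives. GSK3B, a kinase of NR1D1 and CRY2 proteins, was at 174, 149 and 167 CPM in siCTR and 198, 205 and 208 CPM in siLSD1, with a log2 fold change of 0.32 (standard error 0.11, Benjamini-Hochberg adjusted p = 0.186 in edgeR).

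The list of chromatin cofactors of the clock was a broad one that also held PRKCA, TIMELESS and TIPIN. All 16 of its genes were tested and 0 passed in edgeR, DESeq2 or limma-voom. At the unadjusted threshold there were 2 of the 16 in edgeR (KAT2B and TIMELESS), 2 in DESeq2 and 3 in limma-voom, beside 14.0%, 13.2% and 14.3% of all tested genes. KAT2B, an acetyltransferase that works with CLOCK and BMAL1, had 23.0, 24.1 and 28.2 CPM in siCTR and 19.5, 16.6 and 21.8 CPM in siLSD1, and TIMELESS, known for replication forks as well as for the clock, had 176, 152 and 172 CPM in siCTR and 208, 205 and 198 CPM in siLSD1. Neither gene overlapped between the groups, as for 5 of the 16 genes on that list and 21.4% of all tested genes. Their log2 fold changes were −0.38 (standard error 0.15) for KAT2B and 0.29 (standard error 0.11) for TIMELESS, and edgeR gave them Benjamini-Hochberg adjusted p-values of 0.260 and 0.240.

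The output genes, 8 of 8 tested, included the 1 call. CDKN1A, the gene of the cell cycle inhibitor p21 and also a target of p53, had counts of 665, 722 and 749 in replicates 1, 2 and 3 of siCTR against 408, 378 and 359 in those of siLSD1. The groups lay far apart, and CDKN1A fell by 0.90 on the log2 scale (standard error 0.12, Benjamini-Hochberg adjusted p = 0.00357 in edgeR). It was lower in all 3 siLSD1 libraries and passed in each fit that left out 1 library, with a Benjamini-Hochberg adjusted p of at most 0.0220 in edgeR. KLF9, a transcription factor under control of the clock and of glucocorticoids, had counts of 155, 151 and 170 in siCTR against 119, 95 and 136 in siLSD1. A log2 fold change of −0.45 was estimated (standard error 0.16, Benjamini-Hochberg adjusted p = 0.226 in edgeR). With the GC and length correction, 5 of the 47 genes passed, against 7.45% of all genes in that fit. KLF9, USP2, GSK3B and TIMELESS were the genes added.

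**Figure D5:**
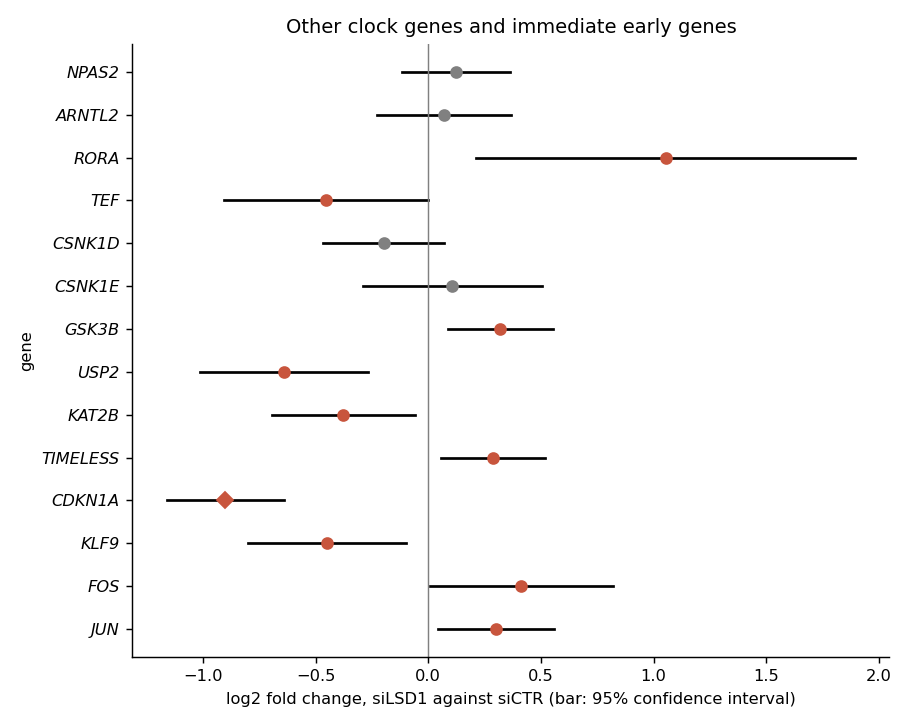
Log2 fold change in siLSD1 against siCTR of the other clock genes and immediate early genes named in the text, with 95% confidence intervals from edgeR as bars. Red points have an unadjusted p under 0.05, and the diamond marks CDKN1A, which passed after adjustment.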

How the data were processed

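RNA-seq libraries of U2OS cells transfected for 48 h were grouped as siCTR and siLSD1 from the sample labels, with 3 libraries per group. The authors deposited read counts per gene as whole reads without normalization, in 1 table of all 6 libraries. STAR is named in the submitters' processing notes, and the genome build, the annotation, the counter and its strand setting are not given in the sources used here. The authors also deposited FPKM values, which divide the counts by gene length and by the reads counted in a library. Further deposited tables, each with the siCTR and the siLSD1 library of 1 replicate number, give other read counts of the same libraries, with a median ratio of 1.11 to the first over 10311 genes. A further 30 per-sample columns were not used. Columns with the fold changes and p-values of the authors' own comparisons were not used.

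Counts were analysed with edgeR 4.0.16 in R 4.3.3, using TMM scaling, a two-sided quasi-likelihood test without covariates and the filterByExpr step (minimum count 10), and the Benjamini-Hochberg adjustment ran over the 11844 genes left. The standard error is the size of the log2 fold change divided by the square root of F. A prior count of 2 entered the log-CPM values. The biological coefficient of variation was 12.6%, and no 2 libraries agreed within sampling noise (chi-square per degree of freedom 6.45 to 39.3). For siCTR replicate 2 against each other library, those of its own group included, this value was 22.7 to 39.3. The total was 12513511 to 13561344 counted reads per library. The procedure was tested on simulated counts. Alternatives were DESeq2 1.42.0, voom in limma 3.58.1, scaling by library size, no filter, a filter of at least 1 CPM in 3 libraries, the second counts, a block for the replicate number, each library left out, and a GC and length correction (lowess trend with span 0.3 added to the offsets), alone and with the block. Python 3.11.15 with numpy 2.4.6, pandas 2.3.3, scipy 1.17.1 and matplotlib 3.10.9 served for the other steps.

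GC content and positions are from GENCODE release 44 (GRCh38), which matched 15352 of 15585 symbols, 389 through an older symbol, and promoter windows are from RefSeq (GRCh38.p14). The genes named were KDM1A, the 10 clock genes, the genes of the other lists with an unadjusted p under 0.05, NPAS2, ARNTL2, RORA, CSNK1D and CSNK1E, and the 3 genes most like the mean of the clock genes driven by CLOCK and BMAL1. The members and lists were chosen with earlier results of these data known, so no list was tested as a set. The other lists were clock transcription factors, kinases and ubiquitin enzymes, chromatin cofactors, output genes and immediate early genes.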

Additional observations from a re-analysis of the deposited data

How the results depend on the processing

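Among the 28 named genes and 15 alternatives, 395 values kept the direction and the side of the adjusted threshold, 16 kept the direction and newly passed it, and 9 changed sign. The sign changes were those of CLOCK (0.0138 without siCTR replicate 3, range −0.206 to 0.0138), PER1 (0.0383 without siCTR replicate 1 and 0.0688 without siLSD1 replicate 3, range −0.179 to 0.0688), NR1D1 (0.0131 with the GC and length correction, 0.0212 with the replicate block and that correction together, and 0.0767, 0.0113 and 0.0071 without siCTR replicate 1, siCTR replicate 3 or siLSD1 replicate 2, range −0.221 to 0.0767) and CSNK1E (−0.131 without siLSD1 replicate 1, range −0.131 to 0.290). None of these 4 was called, and the cause was not tested.

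Of all tested genes, 171 passed the adjusted threshold in edgeR, 323 in DESeq2, 290 with no filter and 876 with the GC and length correction, and 58 to 136 with each library left out (88 and 58 without siCTR replicates 2 and 3, 71 and 60 without siLSD1 replicates 1 and 2). The correction gave 1 clock gene and 5 of the 47 other clock genes past the adjusted threshold, beside 7.45% of all tested genes in that fit, and 4 clock genes at the unadjusted threshold, beside 24.4%. With each library left out, 0 clock genes passed the adjusted threshold, 0 to 3 were at the unadjusted one (0 without siLSD1 replicate 3, 1 without siCTR replicate 1 or siLSD1 replicate 2), and 4 to 8 of the other clock genes were at the unadjusted one (4 without siLSD1 replicate 2), beside 8.86% to 14.3% of all tested genes in these fits (8.86% without siLSD1 replicate 2). The cause was not tested.

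The replicate numbers were checked as a pairing. The deviations from the group means correlated at 0.33, 0.07 and 0.31 between libraries of the same number, so not all pairs were above 0.1, although every library correlated best with that of its own number, which is a hint from the data. The authors also deposited a table for each pair of libraries with the same number, and what a number stands for is not given in the sources used here. With the replicate block 897 genes passed (7.57% of all tested genes), among them 1 clock gene (DBP, log2 fold change −0.88, Benjamini-Hochberg adjusted p = 0.0207 in edgeR, against 0.107 to 0.273 over the other alternatives that kept all libraries and had no block) and 2 of the other clock genes. With the replicate block and the correction together 1277 genes passed (10.9%), among them 2 clock genes (NR1D2 and DBP) and 6 of the other clock genes, and 4 clock genes were at the unadjusted threshold, beside 28.2% of all tested genes in that fit.

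The clock genes with the fewest reads were DBP, with 18 to 79 per library, and PER2, with 52 to 102, and their 95% confidence intervals are the widest of the 10. Only 1 time was measured and the strand of the counts is not given in the sources used here, so that phase and antisense reads were not measured.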

Other observations

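Immediate early genes share inducing signals with PER1, and all 6 of the list were tested. By the Benjamini-Hochberg adjusted p in edgeR 0 of the 6 passed (1.44% of all tested genes), as in DESeq2 and limma-voom. In edgeR 2 had an unadjusted p under 0.05 (14.0% of all tested genes), and in DESeq2 and in limma-voom 1 of the 6, beside 13.2% and 14.3%. The median log2 fold change was 0.30, beside −0.01 over all tested genes. Of the 6, 5 were higher and 1 lower, beside 5598 higher and 6246 lower of all tested genes. FOS had counts of 73, 70 and 90 in replicates 1, 2 and 3 of siCTR against 95, 114 and 101 in those of siLSD1. JUN had counts of 563, 584 and 604 in siCTR against 823, 647 and 694 in siLSD1. The groups did not overlap in CPM for either gene, as for 3 of the 6 on the list and 21.4% of all tested genes. The log2 fold change was 0.41 for FOS (standard error 0.19) and 0.30 for JUN (standard error 0.12), and edgeR gave them Benjamini-Hochberg adjusted p-values of 0.347 and 0.272. The call for JUN depended on the setting. With the GC and length correction its Benjamini-Hochberg adjusted p in edgeR was 0.0497, just under the threshold. In that fit 7.45% of all genes passed, while FOS was not called (Benjamini-Hochberg adjusted p = 0.17 in edgeR). PER1 had a log2 fold change of −0.06, and the difference between PER1 and these genes was not tested.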
